A study of Mus musculus with 2 samples.

Results

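Cushion mesenchyme rich in Hapln1 and Col9a3 was described in whole mouse hearts at embryonic stage E11.5, with and without Hand2 in the endocardium. Members were chosen by measured UMIs (unique molecular identifiers, each 1 captured transcript). They were barcodes with an embedding position in the deposited data that had at least 1 UMI in at least 4 of 7 mesenchyme genes (Twist1, Sox9, Pdgfra, Prrx1, Vcan, Papss2 and Msx1). They had fewer than 4 of 6 endothelial genes detected, and under 2% of their UMIs came from 5 cardiomyocyte genes. Their summed UMIs of Hapln1, Col9a3, Car3 and Htra1 exceeded those of Meox1, Tgfbi, Inhba and Papss2. The rule gave 1284 of 5408 cells in the control library and 633 of 6232 cells in the H2CKO library. Because UMIs of these genes chose the members, the values of the genes of the rule are given below as a description only.

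Each genotype was 1 library of dissociated whole hearts, and how many embryos went into each library, and their sex, is not in the labels. Control embryos had the genotype Hand2fx/+R26RmTmG/wt, that is 1 floxed and 1 intact Hand2 allele and no Cre. H2CKO embryos had the genotype Nfatc1Cre/wtHand2fx/fxR26RmTmG/wt, with both Hand2 alleles floxed. Nfatc1-Cre recombines them in endocardial cells, which line the heart, and in the cells that descend from these. Both carried 1 copy of the mTmG reporter, which is transcribed as membrane Tomato until Cre acts and as membrane GFP afterwards. The controls therefore differ from H2CKO in Cre as well as in the second Hand2 allele, and these cannot be told apart here.

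Endocardial cushions are the swellings from which the valves and septa of the heart form. Endocardial cells of the atrioventricular canal and outflow tract lose their junctions, enter a hyaluronan-rich matrix and become mesenchyme, a transition driven by Notch, BMP and TGF-beta signals. The cushions of the outflow tract also receive neural crest cells, and those of the atrioventricular canal later receive cells from the epicardium. Hapln1 links hyaluronan to versican, Col9a3 is a chain of the cartilage collagen IX, Car3 is a carbonic anhydrase and Htra1 a secreted protease. Hand2 is a basic helix-loop-helix transcription factor used in endocardium, mesenchyme, myocardium and epicardium.

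The matrices held 14114 control barcodes with 195825720 UMIs and 13885 H2CKO barcodes with 201477256 UMIs. Members had a median of 13962 UMIs and 4084.5 genes in the control and of 10469 UMIs and 3157 genes in H2CKO, so H2CKO members held fewer UMIs per cell although their library held more in all. Median mitochondrial shares were 2.89% and 3.92%. The libraries shared 57 barcodes, 15 of them among cells with an embedding position and 0 among members. With 1 library per genotype no difference between genotypes has a replicate check. No p-value was computed, and every interval below is a 95% interval for counting error alone.

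All 7 markers that give the population its name were part of the rule, so the following genes and sums are from outside it. Postn, a matricellular protein of cushion and valve mesenchyme, stood at 509 CPM (UMIs of a gene per 1000000 UMIs of all genes in the class) in control members and 437 CPM in H2CKO members. A Postn UMI was found in 88.4% and 88.6% of them. Has2, the hyaluronan synthase of the cushions, had a UMI in 70.9% and 50.9% of members. Neither gene sets the members apart from Meox1-rich mesenchyme, the mesenchyme cells whose Meox1 sum was the larger, where Postn was 816 and 640.3 CPM and Has2 112 and 86.6 CPM. White-blood-cell markers summed to 2.64 and 7.57 CPM, and neural crest and neural markers to 11.7 and 13.4 CPM, with Tfap2b and Foxd3 among those at 0 UMIs in both libraries. The 4 of 10 endothelial markers outside the rule (Npr3, Nfatc1, Klf2 and Plvap) summed to 143 CPM in each library, of which Klf2 alone gave 105 and 112 CPM. The 2 of 7 cardiomyocyte markers outside the rule, Tnni1 and Nkx2-5, summed to 593 and 548 CPM. The other endothelial and cardiomyocyte markers were held low by the rule itself. Epicardial markers were not at 0: 214 of 1284 control members (16.7%, interval 14.7 to 18.8%) and 26 of 633 H2CKO members (4.11%, 2.70 to 5.96%) had at least 4 of 8 epicardial markers. These epicardial-marked members had median depths of 26609.5 and 18217 UMIs, above those of the members as a whole. Counts without them are given below beside those over all members.

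The genes that chose the members did not stand at the same level in both libraries. Hapln1 was 959 CPM (interval 947 to 972) in control members, against 817 CPM (797 to 838) in H2CKO members, and it had a UMI in 99.1% and 98.9% of members. Col9a3 was 177 and 211 CPM, and Htra1 127 and 161 CPM. Car3 was 267 CPM (261 to 274) in control members, against 682 CPM (663 to 701) in H2CKO members, with a UMI in 56.2% and 73.1% of members. Hapln1 thereby made up 62.7% of the UMIs of the 4-gene sum in control members and 43.7% in H2CKO members, and Car3 17.5% and 36.4%. The members' margin, the sum of the 4 cushion genes minus the sum of the 4 Meox1 genes, had a median of 15 and 14 UMIs. Just inside the threshold lay 99 control members (7.71%) and 48 H2CKO members (7.58%), with a margin of 1 or 2 UMIs. Just outside lay 49 and 20 mesenchyme cells with equal sums, and 58 and 29 that missed by 1 or 2 UMIs.

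The mesenchyme genes used for detection were lower in H2CKO members, apart from Msx1. Vcan, the proteoglycan of cushion matrix, was 2222 CPM in control and 1020.0 CPM in H2CKO members. It was also lower in H2CKO in Meox1-rich mesenchyme (2494 and 1266 CPM), cardiomyocytes (412 and 215 CPM) and epicardial cells (107 and 59.3 CPM). Twist1, a transcription factor of cushion mesenchyme, was 888 and 481 CPM. Sox9, which precedes cartilage-like differentiation, was 496 and 319 CPM. Pdgfra, the receptor for PDGF-A, was 155 CPM (150.1 to 160.2) and 57.5 CPM (52.1 to 63.2). Prrx1 was 103 and 88.6 CPM, and Msx1, a BMP-responsive homeobox gene, 110 and 130.2 CPM. Members with all 7 detected were 25.1% of the control and 5.21% of H2CKO members, while those with exactly 4 were 18.3% and 46.0%. H2CKO members thus met the rule with fewer genes and held fewer UMIs per cell, and the shares are therefore also given at equal depth.

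Members made up 23.7% of control cells with an embedding position (22.6 to 24.9%, Clopper-Pearson) and 10.2% of H2CKO cells (9.42 to 10.9%). Of all mesenchyme cells by the same rule they were 67.6% (65.4 to 69.7%) of 1900 and 70.2% (67.1 to 73.1%) of 902. With every cell thinned to 5000 UMIs, which left out 25 shallower H2CKO cells, the rule found 970 of 5408 control cells (17.9%) and 371 of 6207 H2CKO cells (5.98%). At that depth members were 63.9% and 63.6% of mesenchyme. The lower share of all cells therefore went with mesenchyme as a whole, and the split of mesenchyme into Hapln1-rich and Meox1-rich cells was close in both libraries. In the same libraries, cardiomyocytes were 37.3% and 60.1% of cells and epicardial cells 10.9% and 2.66%. A loss of cushion cells and a gain of the others cannot be told apart from shares.

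Hand2 (chromosome 8, 57320983 to 57324517, GRCm38.p6) checks the labels. It was 159 CPM (154 to 165, 3744 UMIs) in control members and 41.0 CPM (36.5 to 45.9, 303 UMIs) in H2CKO members, a log2 ratio of −1.84. A Hand2 UMI was found in 87.6% of control members and 23.4% of H2CKO members. In erythroid cells, which should lack the gene, the shares were 7.98% and 4.24% at median depths of 18734 and 13510 UMIs, and the level 5.61 and 4.13 CPM. Hand2 in H2CKO members thus lay above the level of free RNA. In the Meox1-rich mesenchyme Hand2 was 172 and 101 CPM, and in endothelial cells 231 and 17.4 CPM. Cardiomyocytes had 80.3 and 75.6 CPM and epicardial cells 119 and 117 CPM, log2 ratios of −0.08 and −0.02. Which part of the gene lies between the loxP sites is not given in the sources used here, so these levels are not read as deletion efficiency.

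**Figure D1:**
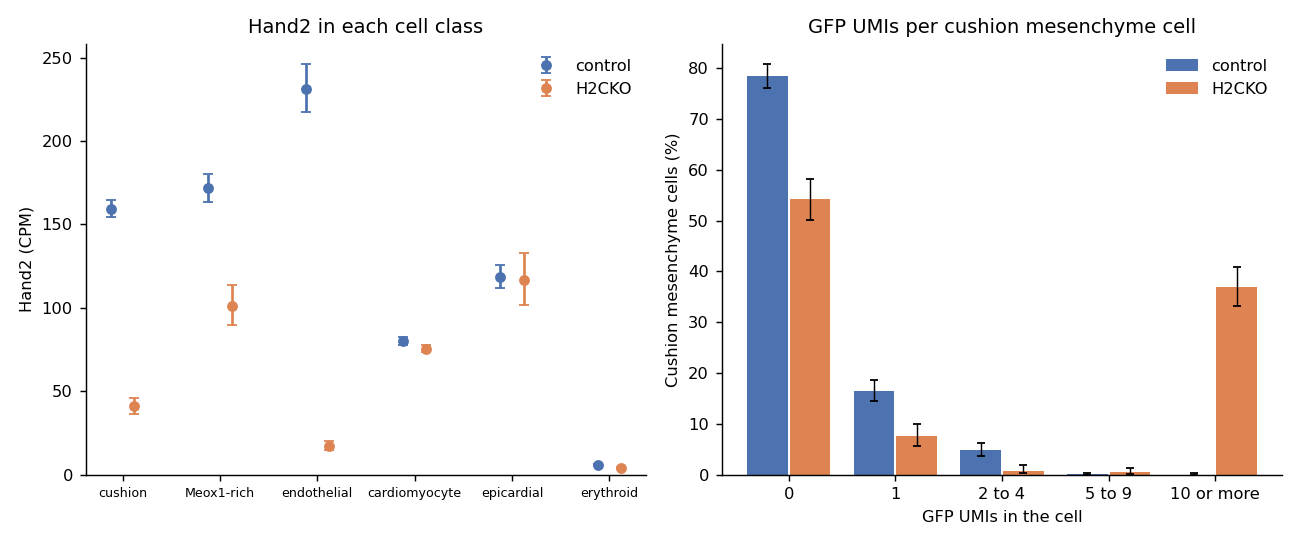
Left, Hand2 in CPM in 6 cell classes of the control and H2CKO libraries, with 95% exact Poisson intervals; cushion cells fell from 159 to 41.0 CPM while cardiomyocytes and epicardial cells stayed near their control level. Right, the share of cushion mesenchyme cells (in %) by number of GFP UMIs in the cell, with 95% Clopper-Pearson intervals; only H2CKO cells reach 10 or more.

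GFP separated the H2CKO members into 2 groups with few cells between them. No GFP UMI was found in 343 of 633 H2CKO members, 48 had 1 UMI, 5 had 2 to 4, 3 had 5 to 9 and 234 (37.0%, 33.2 to 40.9%) had at least 10. Among the 1284 control members, which carry no Cre, 1008 had no GFP UMI, 212 had 1, 63 had 2 to 4 and 1 had 5. A single GFP UMI was therefore no more frequent in H2CKO (7.58%) than in the control (16.5%), and 10 or more were found in H2CKO alone. Summed over members, GFP was 15.2 CPM in the control and 945 CPM in H2CKO. Tomato was 27.3 and 4.60 CPM, and it was lower in every class of H2CKO cells. The plot of GFP UMIs per cell shows the gap between the groups. The depth of cells without GFP and of those with at least 10 GFP UMIs was close, with medians of 10504 and 10058 UMIs. In the Meox1-rich mesenchyme 18.9% of control and 12.05% of H2CKO cells (107 and 30 cells) had a GFP UMI. The level went the other way. It was 13.7 CPM (11.45 to 16.3, 130 UMIs) in the Cre-free control and 44.4 CPM (36.9 to 52.9, 124 UMIs) in H2CKO. In endothelial cells the shares with a GFP UMI were 22.2% and 69.6%. Erythroid cells, which show the level of free RNA, had a GFP UMI in 1.56% of control and 6.27% of H2CKO cells.

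Within the H2CKO library, members with at least 10 GFP UMIs were set against members with none, for genes picked after their values were seen. Hand2 was 20.5 CPM (15.5 to 26.5) in the former and 55.7 CPM (48.5 to 63.8) in the latter, against 159 CPM in control members. The GFP-free H2CKO members were thus also below the control, at a log2 ratio of −1.44. Ptn, a heparin-binding growth factor, was 229 CPM (212 to 247) with at least 10 GFP UMIs and 470.1 CPM (449 to 492) without GFP, against 1002 CPM in the control. Robo2, a receptor for Slit guidance cues, was 26.5 and 58.4 CPM, against 117 CPM. Tgfbi, a TGF-beta-induced matrix protein and a gene of the rule, was 74.1 and 163 CPM, against 216 CPM.

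Other genes followed other patterns. Lum, which encodes the small proteoglycan lumican, was 16.6 CPM (12.2 to 22.1) in members with at least 10 GFP UMIs and 68.4 CPM (60.3 to 77.3) in those without, the latter close to the 78.4 CPM of the control. Stmn4, a stathmin, was 7.06 and 33.3 CPM, against 20.3 CPM in the control. Prrx1 was 59.7 and 112 CPM, against 103 CPM. Igfbp2, a binding protein for insulin-like growth factors, was 89.3 CPM (78.6 to 101) and 49.7 CPM (42.8 to 57.3), both above the 24.5 CPM of the control. Hes1, a repressor induced by Notch among other signals, was 413 and 389 CPM, against 130.3 CPM, so its higher level did not go with GFP. Hapln1 (879 and 788 CPM) and Sox9 (315 and 323 CPM) were close in both groups, and Vcan was 963 and 1068 CPM.

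**Figure D2:**
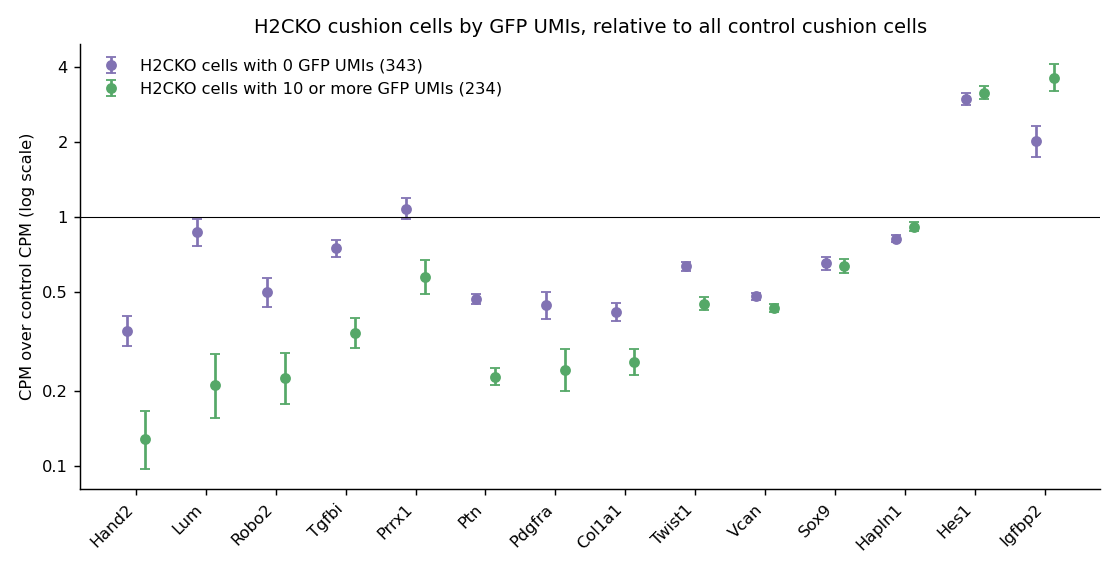
CPM of 14 genes in H2CKO cushion cells with 0 (343 cells) and with 10 or more (234 cells) GFP UMIs, divided by the CPM of all control cushion cells, on a log scale; bars are 95% exact Poisson intervals of the H2CKO CPM. Hand2, Lum, Robo2, Tgfbi, Prrx1 and Ptn lie lower in the cells with GFP, whereas Hes1 and Sox9 lie together.

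Across all genes, members with any GFP UMI (290 cells) were compared with members without (343 cells). Of 5917 genes with at least 20 CPM and 20 UMIs in the higher group, 22 were past 2-fold higher (0.372%) and 5 past 2-fold lower (0.0845%) in the cells with GFP, and Myh6 and Myh7 among the 22 are genes of the rule. The 5 lower genes were Stmn4, Lum, Tpm2, Crabp1 and Gkn3, at log2 ratios of −1.35 to −1.17. Of the 8 highest, genes of the rule left out, Ryr2, Ttn, Mb, Fbxl22, Rbm24, Pgam2 and Smpx are genes of striated muscle, and the other is the epicardial marker Upk3b (43.2 CPM with and 16.4 CPM without GFP). Epicardial-marked members were 4.83% of the cells with and 3.50% of those without a GFP UMI. Without them 14 genes were past 2-fold higher (0.237%) and 12 lower (0.204%), Upk3b was under the bound for testing (0.622 and 1.93 CPM), and Rbm24 stood at 0.94 while the other 6 muscle genes stayed past 2-fold. Ttn, the giant sarcomere protein, was 1201 CPM in the 48 members with 1 GFP UMI, 444 CPM in members with at least 10 and 212 CPM in members with none. It was 1014 CPM in control members. A Ttn UMI was found in 29.9% of members with at least 10 GFP UMIs and in 23.6% of those with none. Against control members, the muscle genes named ran from −0.79 (Ttn) to 0.79 (Mb) in cells with a GFP UMI. In cells without, they ran from −2.23 (Ttn) to −0.57 (Mb), all below the control. The part of muscle RNA in these ratios was not tested. With the bound raised to at least 2 GFP UMIs (242 cells), 12 genes were past 2-fold higher (0.202%) and 15 lower (0.252%). Muscle genes were again among the 12 higher, with Mb at 1.36, Ryr2 at 1.34, Fbxl22 at 1.24, Pgam2 and Smpx at 1.10, Ttn at 1.05 and Myh6, a gene of the rule, at 1.03. The lower genes then included Hand2 (−1.26), Tagln (−1.16), Tgfbi (−1.09), Ptn (−1.07), Mfap4 (−1.06) and Ppp1r14a (−1.03). Tagln, an actin-binding protein of smooth muscle, was 379 CPM with and 856 CPM without GFP.

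In the whole population, 6582 genes had at least 20 CPM and 20 UMIs in the library where they were higher. H2CKO members had 13 of them past 2-fold higher (0.198%) and 155 past 2-fold lower (2.35%) than control members, on the scale of log2 of CPM plus 5. Genes of the rule are in these counts, Car3 among the higher and Vcan, Pdgfra and Myh6 among the lower, and so are GFP (higher) and Tomato (lower), which leaves 11 and 151 other genes. The median gene lay at a log2 ratio of −0.17, and 63.2% of genes lay below 0, so a list's median is read against −0.17 rather than 0. On a scale centred on the median gene, 31 genes were past 2-fold higher and 72 lower. Much of the difference was shared with other cells of the library. Of the 155 lower genes, 65 were also past 2-fold lower in Meox1-rich mesenchyme (1.82% of all its tested genes were), 68 in cardiomyocytes (0.552%) or epicardial cells (4.26%), and 16 in both of these. Gm10260, for example, was 387 CPM in control and 0.270 CPM in H2CKO members, with a mean log2 ratio of −6.37 in the reference classes, and Rpl29 was 342 and 1348 CPM, with 1.89 in the reference classes. Both can share reads with near-identical copies. Across genes, the log2 ratio fell with the genomic span of the gene in members (Spearman −0.53 over 6580 genes) and also in cardiomyocytes (−0.50).

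Genes were therefore set against 2 reference classes, cardiomyocytes and epicardial cells, whose Hand2 levels were close in both libraries. A gene was counted as beyond the reference when it was past 2-fold and at least 1 log2 unit past the mean ratio of these classes in the same direction. By this rule 2 genes were higher (0.0304%), GFP and Igfbp2, and 24 lower (0.365%). Of the 24, 13 were under 5 CPM in cardiomyocytes of both libraries, so with 5 CPM added their ratio there could hardly move from 0. Against epicardial cells alone, 2 genes were higher (0.0304%) and 21 lower (0.319%), and 18 of the 24 were among the lower. Wt1, Upk3b, Upk1b, Aldh1a2 and Lrrn4 among these 18 are markers that chose the epicardial cells. That choice favours a high level of them there in both libraries, so their place beyond the reference is in part built in. The 6 that were not were Dpp4, Ezr, Gucy1a1, Pkhd1l1, Slco3a1 and Tbx18. Against Meox1-rich mesenchyme alone, 1 gene was higher (0.0152%) and 3 lower (0.0456%), and of the 24 only Hand2 and Gm14226 were among them. The scatter of ratios in cushion against reference cells shows them off the diagonal, on which most genes lie.

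**Figure D3:**
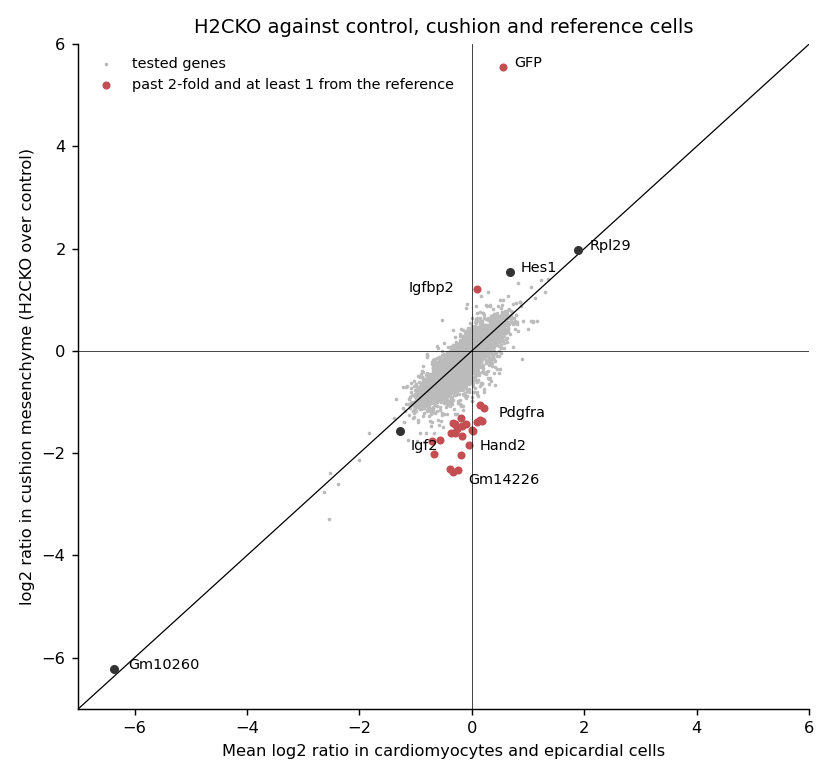
Each point is 1 of 6582 tested genes. The y axis is the log2 ratio (H2CKO over control) in cushion mesenchyme, the x axis the mean of the log2 ratios in cardiomyocytes and epicardial cells, and the line marks equal values. Gm10260 and Rpl29 lie on the line, whereas Hand2 (−1.84) and GFP (5.55) lie far from it.

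Igfbp2 (chromosome 1, 72824480 to 72852474) was 24.5 CPM (22.6 to 26.6, 576 UMIs) in control members and 63.7 CPM (58.1 to 69.7, 471 UMIs) in H2CKO members. It was detected in 25.2% and 37.4% of them. The log2 ratio was 1.22, against 0.09 in the reference classes and 0.39 in Meox1-rich mesenchyme. In endothelial cells it was 43.2 and 92.1 CPM, a log2 ratio of 1.01. Without the epicardial-marked members it was 1.35.

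Several of the 24 lower genes are known from the epicardium, the outer layer of the heart. Upk3b, a uroplakin of mesothelium, was 174 CPM in control and 29.5 CPM in H2CKO members, but it had a UMI in only 18.8% and 5.37% of them. Aldh1a2, which makes retinoic acid in the epicardium, was 52.4 and 6.63 CPM, and Upk1b 36.0 and 5.00 CPM. Wt1, the zinc-finger factor of the epicardium, was 49.5 and 15.7 CPM, and Tbx18 78.6 and 22.6 CPM. Lrrn4 was 27.2 and 5.95 CPM, Tm4sf5 21.0 and 3.79 CPM, and Pkhd1l1 21.4 and 1.49 CPM. Pkhd1l1 differed from epicardial cells by −0.76, under the bound of 1, and was near 0 in cardiomyocytes (0.663 and 0.291 CPM). Apela, a ligand of the apelin receptor, was 80.1 and 27.7 CPM. Smim1 was 78.2 and 21.4 CPM. Of the 24 genes, 14 were also past 2-fold lower in Meox1-rich mesenchyme, so these differences were not particular to cushion cells. There Upk3b stood at −2.37 (−2.37 in members), Wt1 at −1.63 (−1.40), Aldh1a2 at −1.72 (−2.30), Upk1b at −1.59 (−2.04), Lrrn4 at −1.40 (−1.55) and Smim1 at −1.16 (−1.66).

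These genes moved with the epicardial-marked members. With those members left out, which kept 1070 control and 607 H2CKO cells, Wt1 stood at a log2 ratio of 0.01, Upk1b at 0.01, Lrrn4 at 0.08, Tm4sf5 at 0.09, Upk3b at −0.32 and Aldh1a2 at −0.30. Apela (0.47, at 1.56 and 4.10 CPM) and Dcn (0.38, at 14.4 and 20.3 CPM), which encodes the proteoglycan decorin, were higher in H2CKO. Wt1, Upk3b, Upk1b, Tbx18, Aldh1a2 and Lrrn4 are among the markers that chose the members left out, whereas Apela, Tm4sf5, Smim1, Dcn, Krt7, Krt18, Ezr, Gucy1a1 and Dpp4 are not. Of the 24 lower genes, 18 then lay within 0.5 of a log2 ratio of 0, those under 5 CPM in both libraries among them, and 5 were still past 2-fold lower. The plot of ratios with and without the epicardial-marked members shows both sets. With these members left out, 14 of 6572 genes were past 2-fold higher (0.213%) and 161 lower (2.45%). What these cells are was not tested. With every cell thinned to 5000 UMIs, 29 genes were beyond the reference, of which 5 were among the 26 over all members (3 of the 24 lower), and Wt1 stood at −0.36, Aldh1a2 at −0.67 and Upk3b at −1.38.

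**Figure D4:**
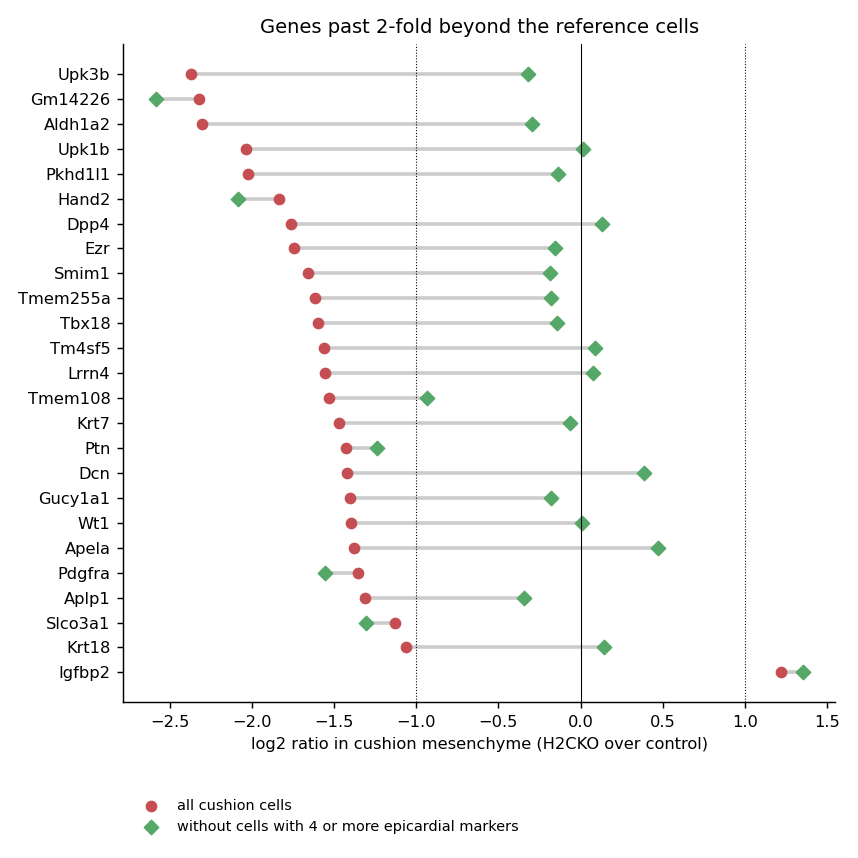
Log2 ratio (H2CKO over control) of the genes beyond the reference, GFP left out, over all cushion cells (circles) and without cells with 4 or more epicardial markers (diamonds); dotted lines mark 2-fold. The diamonds of Hand2, Gm14226, Pdgfra, Ptn and Slco3a1 stay below −1, and Igfbp2 stays above 1.

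The 5 that were still lower were Hand2 (−2.08 without the epicardial-marked members), Gm14226 (−2.59), Pdgfra (−1.56), Slco3a1 (−1.30) and Ptn (−1.24). Ptn (chromosome 6, 36714924 to 36810179) was 1002 CPM (990 to 1015) in control members and 370.0 CPM (356 to 384) in H2CKO members, and it was detected in 92.6% and 64.5% of them. Its log2 ratio was −1.43, against −0.30 in the reference classes and −0.45 in Meox1-rich mesenchyme. In endothelial cells it was 228 and 29.3 CPM, a log2 ratio of −2.76. Without the epicardial-marked members Ptn differed from the reference classes by −0.94 and was no longer beyond them by the rule. Its range over 15 alternatives was −1.55 to −1.20. Slco3a1, an organic anion transporter, was 24.2 CPM (22.3 to 26.3) and 8.38 CPM (6.43 to 10.8), in 29.1% and 8.21% of members, and its ratio in Meox1-rich mesenchyme was −0.14. It differed from epicardial cells alone by −0.85, under the bound of 1. Slco3a1 was past 2-fold in 12 of 15 alternatives, and came to −0.64 at the least, the exceptions being a pseudocount of 20 CPM, centring on the median gene and removal of the trend with gene span. Pdgfra is a gene of the rule, so its values stand as a description.

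Gm14226 had 471 UMIs in 294 control members and 0 in H2CKO members. It was 20.1 CPM in the control, and 3 UMIs, the limit that a count of 0 allows, amount to 0.406 CPM in H2CKO. In all barcodes it had 750 UMIs in the control and 0 in H2CKO. In the GENCODE annotation it lies inside the agouti gene, on the same strand, so its reads cannot be assigned with certainty. In cardiomyocytes and epicardial cells of the control it stood at only 1.06 and 0.867 CPM, so with 5 CPM added the reference ratio could not move far from 0, and its place beyond the reference is not read as a difference between classes. Strain background and genotype cannot be told apart for this gene.

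Leaving out the epicardial-marked members also brought further genes beyond the reference, all named after their values were seen. In all, 16 genes were lower (0.243%) and 4 higher (0.0609%, GFP among them) by this count. Robo2 was 139 CPM in control and 48.1 CPM in H2CKO members, Epha3, an ephrin receptor, 85.4 and 33.2 CPM, and Itga4, an integrin that binds fibronectin, 214 and 83.8 CPM. Scube1 was 22.8 and 5.71 CPM, and Shisa2 51.4 and 17.1 CPM. Tbx2, a T-box repressor of the atrioventricular canal, was 33.4 and 13.9 CPM, and Mgp, an inhibitor of calcification, 47.3 and 20.9 CPM. Nr4a1, an immediate-early nuclear receptor, was 10.9 and 26.9 CPM, and Dusp5, a phosphatase of ERK signalling, 9.97 and 25.2 CPM. Twist1, Papss2 and Pdgfra, all genes of the rule, were also in the lower set.

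The H2CKO members with a GFP UMI alone were also set against all control members. Past 2-fold were 23 genes higher (0.349%) and 191 lower (2.90%), and beyond the reference 6 higher (0.0910%) and 38 lower (0.576%). GFP, for which the cells were picked, is among both higher counts, as Car3 is among the 23. Among the 38, Pdgfra and Twist1 are genes of the rule. Hand2 stood at a log2 ratio of −2.43. With the epicardial-marked members also left out, 27 genes were higher (0.409%) and 225 lower (3.41%), and 9 (0.136%) and 34 (0.515%) of them were beyond the reference, again with GFP among the higher and with Tomato and 3 genes of the rule among the lower. Ptn was then at −2.01 and Igfbp2 at 1.67.

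Several matrix genes were lower in H2CKO members. Of 20 tested collagens and collagen-modifying genes, 6 were past 2-fold lower and 0 higher, where 2.35% of all genes were lower and 0.198% higher. Their median was −0.76 against −0.17 for all genes, and the same 2.35% is the background of the lists that follow. Relative to the reference classes the median was −0.18, and in Meox1-rich mesenchyme it was −0.66. Over all members 0 of the 20 were beyond the reference. Col1a1, a chain of fibrillar collagen I, was 361 CPM (354 to 369) in control and 129 CPM (121 to 138) in H2CKO members, in 85.7% and 50.7% of them. Its partner Col1a2 was 260.1 and 97.2 CPM, and Col3a1, another fibrillar collagen, 564 and 261 CPM. Col6a1 was 42.4 and 16.6 CPM, Col18a1 302 and 147 CPM, and Plod2, which hydroxylates collagen lysines, 148 and 65.4 CPM. Plod2 (−1.12 in members, −1.10 in the reference classes), Col3a1 (−1.10 and −0.87) and Col18a1 (−1.01 and −0.85) were low in the reference classes as well. Serpinh1, the chaperone of collagen folding, was 775 and 789 CPM. Without the epicardial-marked members 5 of the 20 were past 2-fold lower, and Col1a2 stood at −0.91.

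Cartilage genes did not pass 2-fold. Of the 11 tested, 0 were past 2-fold in either direction, at a median of −0.47. Col9a1, a chain of collagen IX beside Col9a3, was 140.3 and 87.9 CPM, and Col2a1, the main cartilage collagen, 63.1 and 40.03 CPM. Col2a1 did pass 2-fold in H2CKO members with a GFP UMI when the epicardial-marked members were left out. It was then 70.4 and 31.1 CPM, a log2 ratio of −1.06, and differed from the reference classes by −1.41. The Sox9 partners Sox5 and Sox6 were 105 and 82.4 CPM, and 72.8 and 42.9 CPM.

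Among 18 genes of hyaluronan and proteoglycan turnover, 2 were past 2-fold lower, at a median of −0.28. Gpc3, a glypican, was 463 and 207 CPM, and Dcn, which was higher without the epicardial-marked members, 153 and 54.0 CPM. The ratio of Gpc3 was −1.14, against −0.71 in the reference classes. Has2 was 116 and 70.3 CPM, and Adamts1, which cleaves versican, 87.1 and 43.4 CPM (−1.04 without the epicardial-marked members). Bgn, the proteoglycan biglycan, was 183 and 235 CPM.

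Of 24 matricellular and elastic-fibre genes, 3 were past 2-fold lower, at a median of −0.51, and 4 of 22 without the epicardial-marked members. In both counts 0 were beyond the reference. Fbln2, a fibulin of cushion matrix, was 443 and 214 CPM. Nid1, a basement-membrane protein, was 89.8 and 41.6 CPM. Spon1 was 30.2 and 11.4 CPM, but it was at −0.47 without the epicardial-marked members. Fn1 (fibronectin) was 844 and 474 CPM, while Sparc stood at 1574 and 1441 CPM.

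Of 27 tested transcription factors of the transition, 0 were past 2-fold, with a median of −0.40, and 21 lay below the median gene. Without the epicardial-marked members 1 of 29, Tbx2, was past 2-fold lower, and with H2CKO members with a GFP UMI alone 1 of 27. Id3, a BMP target, was 1215 and 1671 CPM, Id2 1025 and 666 CPM, and Id1 629 and 682 CPM.

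**Figure D5:**
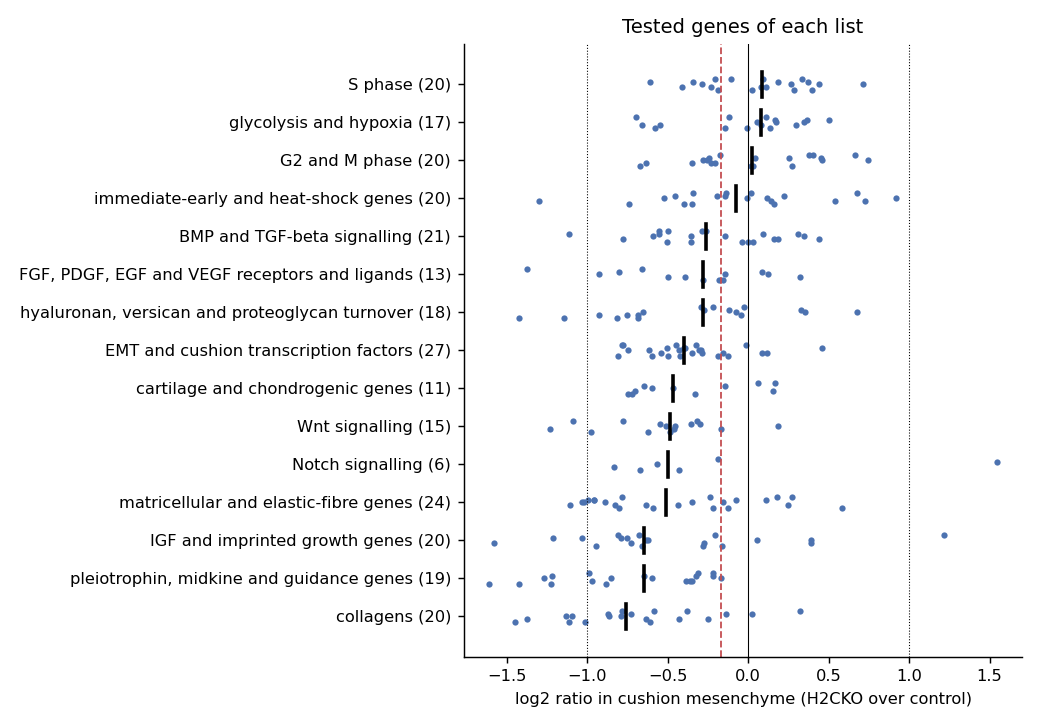
Log2 ratio (H2CKO over control) in cushion mesenchyme of the tested genes of 15 lists, 1 point per gene, with the number of genes in brackets and a bar at the median; the dashed line is the median of all tested genes (−0.17) and dotted lines mark 2-fold. Collagens and guidance genes lie furthest to the left, and the cell-cycle and glycolysis lists near 0.

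Signalling genes were mostly within 2-fold. Of 21 BMP and TGF-beta genes, 1 was past 2-fold lower: Bmpr2, the type II BMP receptor, at 94.7 and 41.0 CPM. Its log2 ratio was −1.12, against −0.69 in the reference classes and −0.88 in Meox1-rich mesenchyme, so it was not beyond the reference. Bambi, a decoy receptor, was 222 and 277 CPM, and the ligand Tgfb2 175 and 186 CPM. Of 15 Wnt genes, 2 were past 2-fold lower, and 0 were beyond the reference. Lef1, which carries out Wnt responses on DNA, was 114 and 45.6 CPM, and Sfrp1, a secreted inhibitor, 190 and 86.7 CPM. Of 13 FGF, PDGF, EGF and VEGF genes, with Pdgfra left out as a gene of the rule, Vegfa alone was past 2-fold lower (50.7 and 16.5 CPM), and it was at −1.21 in Meox1-rich mesenchyme as well.

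In the Notch list, Hes1 (chromosome 16, 30065357 to 30067796) was higher while the other 5 tested genes lay below 0. Hes1 was 130.3 CPM (126 to 135) in control and 390.3 CPM (376 to 405) in H2CKO members, in 71.5% and 90.5% of them, a log2 ratio of 1.55. Part of this was shared: the reference classes had 0.68 and Meox1-rich mesenchyme 0.87, which left Hes1 0.87 beyond the reference and under the bound of 1. The receptors Notch1 and Notch2 were 34.8 and 24.5 CPM, and 41.6 and 21.1 CPM, and Rbpj, the DNA-binding partner of Notch, 70.6 and 42.5 CPM. Notch2 (−0.84 in members, −0.87 in the reference classes) and Rbpj (−0.67 and −0.68) were as low in the reference classes, whereas Notch1 was −0.43 and −0.06.

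Of 20 IGF and imprinted genes, Igfbp2 was past 2-fold higher and 3 were past 2-fold lower. Igf2, a fetal growth factor, was 1359.6 CPM (1345 to 1375) in control members, against 452 CPM (437 to 468) in H2CKO members. Its log2 ratio was −1.58, of which −1.27 was also seen in the reference classes. Igf2r, which clears Igf2, was 365 and 155 CPM. Mest was 378 and 182 CPM, and at −0.62 without the epicardial-marked members, which left 2 of 20 past 2-fold lower.

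Pleiotrophin, midkine and guidance genes formed a further list. All 19 tested genes lay below the median gene, 5 of them past 2-fold lower, at a median of −0.65 against −0.44 in Meox1-rich mesenchyme. Without the epicardial-marked members 6 of 17 were past 2-fold lower. Besides Ptn the 5 were Cdh2 (207 and 82.9 CPM), Cdh11 (233 and 97.1 CPM), both cadherins of mesenchyme, Robo2 (117 and 47.1 CPM) and Sema3d (36.7 and 8.65 CPM). Sema3d, a secreted semaphorin, was at −0.15 without the epicardial-marked members, while Robo2 was at −1.44. Mdk, the relative of Ptn, was 1709 and 1338.5 CPM.

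Proliferation genes stayed within 2-fold. None of 20 S-phase and 20 G2 and M-phase genes was past 2-fold, with medians of 0.09 and 0.03. Top2a was 475 and 404 CPM, Pcna 164 and 178 CPM. Of 20 immediate-early and heat-shock genes, which respond to dissociation, Fosb was past 2-fold lower (142 and 54.8 CPM) and its ratio was also −1.30 in Meox1-rich mesenchyme. Their median of −0.07 was above that of all genes. Without the epicardial-marked members Nr4a1 was past 2-fold higher as well. None of 17 glycolysis and hypoxia genes was past 2-fold, with a median of 0.08. On a scale centred on the median gene the immediate-early list's median changes sign.

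Members were last set against the Meox1-rich mesenchyme of the same library (567 control and 249 H2CKO cells), which gives 1 value of the difference per library. Leaving out genes of the rule, 14 of 5800 genes were past 2-fold higher in members in both libraries (0.241%) and 48 past 2-fold lower (0.828%). Cells with at least 4 epicardial markers were 16.7% of members against 6.53% of Meox1-rich cells in the control, and 4.11% against 1.20% in H2CKO. The epicardial marker Upk3b was among the 14, at 174 against 59.5 CPM and 29.5 against 7.51 CPM. With these cells left out of both classes, 22 of 5787 genes were higher (0.380%) and 50 lower (0.864%), including 13 of the 14 and 44 of the 48. Upk3b was the one of the 14 no longer higher. Higher in members were Sall3, a zinc-finger factor (45.6 against 6.96 CPM in the control, 35.8 against 7.15 CPM in H2CKO), and Tbx3 (29.7 against 9.59 CPM, 22.3 against 7.15 CPM). Nkd1 and Apcdd1, both Wnt inhibitors induced by Wnt, were 57.9 against 17.0 and 28.0 against 5.90 CPM in the control. In H2CKO they were 66.7 against 14.7 and 21.5 against 5.01 CPM. Of the 17 tested Wnt genes, however, these 2 were higher and 3 lower in both libraries, at list medians of −0.48 and −0.64. The 3 lower were Wnt5a (56.5 against 118 CPM, 26.2 against 97.3 CPM), Sfrp2 (12.01 against 47.1 CPM, 8.52 against 65.5 CPM) and Frzb (8.26 against 28.8 CPM, 9.33 against 43.6 CPM). Klf2, a flow-induced factor of endothelium, was 105 against 35.3 CPM in the control and 112 against 42.2 CPM in H2CKO. Calcrl and Ptprb, known from endothelium, were also higher, at 26.0 against 4.01 and 69.9 against 18.9 CPM in the control. Of the endothelial marker list, Klf2 was the only 1 tested here. The 4 markers outside the rule summed to 143 against 78.2 CPM in the control. Of those in the rule, Pecam1 was lower in control members (16.1 against 24.0 CPM) and Egfl7 higher (42.7 against 36.3 CPM). The others were under 5 CPM in both classes.

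Lower in members were 3 of 4 tested smooth muscle markers, beside 2 of 22 matricellular genes, 1 of 18 collagens and 0 of 18 genes of hyaluronan and proteoglycan turnover. Tagln was 660 against 1762 CPM in the control and 655 against 2082.5 CPM in H2CKO. Cnn1 was 77.0 against 190.0 CPM and 58.1 against 150.2 CPM, and Rgs5, a pericyte gene, 10.6 against 39.3 CPM and 6.49 against 49.4 CPM. The widest gap was that of Penk, which encodes proenkephalin, at 3.19 against 47.3 CPM and 1.62 against 40.1 CPM. Stmn4 was 20.3 against 118 CPM and 21.9 against 160.3 CPM. Tnc, the matrix protein tenascin C, was 36.1 against 119 CPM and 15.7 against 66.9 CPM, and Cd200 16.6 against 68.6 CPM and 11.9 against 66.5 CPM. Hand2 was level in the control, at 159 against 172 CPM, and apart in H2CKO, at 41.0 against 101 CPM. GFP was 945 against 44.4 CPM in H2CKO. Whether the difference between the classes changed with genotype was not tested for any gene.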

How the data were processed

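Single-cell libraries of whole E11.5 mouse hearts, 1 per genotype, were made with 10x Genomics 3′ chemistry, per the labels' protocols. The authors deposited UMI counts per barcode and gene, not normalized, for 22401 features including GFP and Tomato. Per the submitters' processing notes Cell Ranger 5.0.1, Seurat 4 and build GRCm38.p6 were used, with roles not given in the sources used here. The deposited embedding coordinates, a score without a unit, served only to mark cells. Of the features, 22285 matched a symbol by Ensembl ID, and coordinates are those of the RefSeq table of GRCm38.p6.

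Members were found by the rule given in the text. Meox1-rich mesenchyme met the same mesenchyme rule with the larger Meox1 sum. Endothelial cells had at least 4 of the 6 endothelial genes and fewer than 4 mesenchyme genes. Cardiomyocytes had at least 2% of UMIs from cardiomyocyte genes, and epicardial cells at least 4 of 8 epicardial markers outside mesenchyme. Erythroid cells had at least 20% haemoglobin UMIs and were taken from all barcodes with at least 500 genes. The 2% bound and the erythroid choice were set after the data were examined. No doublet caller was applied to the main values. Leaving out the 6% of cells with the highest Scrublet scores (scanpy 1.11.5) was an alternative.

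For each class of cells in a library, UMIs were added up and scaled to 1000000 per class (CPM). Ratios are log2 of H2CKO CPM plus 5 over control CPM plus 5. Intervals are exact Poisson and Clopper-Pearson (scipy 1.17.1). The ratio rules were tested on simulated counts. No test between libraries was possible, and PCR and library effects are not covered by the intervals. The members and the 24 gene lists were chosen with earlier results of these data known.

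Named genes are the 12 highest and 12 lowest beyond the reference, the reporters, list genes past 2-fold (at most 8 each way) with up to 4 of the highest CPM, the 12 highest and 12 lowest against Meox1-rich mesenchyme, the 8 highest and lowest by GFP, and the genes of the rule. Genes shown by GFP band, those with at least 2 GFP UMIs and those named without epicardial-marked members were chosen after their values were seen.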

Additional observations from a re-analysis of the deposited data

How the results depend on the processing

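A pseudocount of 1 CPM gave 25 genes higher and 306 lower in H2CKO members (13 and 155 as reported), 5 higher beyond the reference, 22 higher against Meox1-rich mesenchyme and 9 lower by GFP. A pseudocount of 20 CPM gave 8 and 42, with 1 higher and 9 lower beyond the reference, 1 and 13 in the functional lists, and Hand2 at −1.56. Testing genes of at least 100 CPM alone, so fewer genes, gave 53 lower, 1 and 6 beyond the reference, and 1 higher in the lists. Centring on the median gene gave 31 higher and 72 lower, with 13 lower in the lists. A total without haemoglobin, mitochondrial and ribosomal protein genes gave 26 higher and 5 higher beyond the reference.

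Thinning to 5000 UMIs gave 283 lower genes, Hand2 at −2.20 and 52 lower genes by GFP. Without epicardial-marked members, 4 genes were higher beyond the reference, Hand2 stood at −2.08 and the share of members among cells was −10.05 percentage points in H2CKO minus control (−13.6 as reported). In that setting Upk1b (0.0143), Tm4sf5 (0.0871), Apela (0.47), Lrrn4 (0.0755), Wt1 (0.0065), Dcn (0.38), Krt18 (0.14) and Dpp4 (0.13) changed sign. Of these, Upk1b, Tm4sf5, Apela, Lrrn4 and Dpp4 were under 5 CPM in both libraries. Their signs rest on small counts, for Upk1b 4 UMIs in the control and 2 in H2CKO. Members under 1% cardiomyocyte UMIs gave Hand2 at −2.02. All barcodes with at least 500 genes gave 21 higher genes and a share difference of −8.21 points. A mean of per-cell CPM gave Hand2 at −2.10 and removal of the trend with gene span −2.14. Cardiomyocytes as the only reference gave 5 higher and 39 lower genes beyond it, and Meox1-rich mesenchyme 1 and 3.

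Settings chosen after seeing the data follow. H2CKO members with a GFP UMI alone gave 23 higher genes, 6 and 38 beyond the reference, 4 higher in the lists and Hand2 at −2.43. Those without a GFP UMI gave 0 higher beyond the reference, 1 higher in the lists, Hand2 at −1.44 and GFP at −2.02, since they were picked for lacking it. Members with a GFP UMI and without epicardial markers gave 27 higher, 9 higher beyond the reference, 4 higher in the lists and Hand2 at −2.87, and Upk1b (0.0194), Tm4sf5 (0.21) and Krt18 (0.0514) changed sign. Upk1b and Tm4sf5 then had only 1 and 3 UMIs in H2CKO. At least 2 GFP UMIs against none gave 12 higher and 15 lower genes, and at least 5 gave 12 and 16. Without epicardial-marked cells, 14 genes were higher and 12 lower by GFP, and 22 higher against Meox1-rich mesenchyme. Except where the setting itself fixed it, the cause of these changes was not tested.

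Hand2, Gm14226, Ptn and GFP were past 2-fold in all 15 alternatives that changed cells, scale or filter other than by GFP, and Igfbp2 in 14 of them, with a lowest log2 ratio of 0.91. With 1 library per genotype, no paired analysis was possible because each group has 1 library, and no replicate could be left out. At this depth, a count of 0 in the 633 H2CKO members allows a level of up to 0.406 CPM.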

Other observations

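Of the 155 genes past 2-fold lower over all members, 103 were also past 2-fold lower without the epicardial-marked members, as were 10 of the 13 higher genes. Some of these 13 are not described above and were named after their values were seen. Tspan8, a tetraspanin, was 9.84 CPM in control and 27.9 CPM in H2CKO members, and Tm4sf1 7.24 and 20.8 CPM. Tuba1a, an alpha-tubulin, was 905 and 1850 CPM, with a difference from the reference classes of −0.09.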
